A study of Mus musculus with 14 samples.

Results

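The receptors that share the common gamma chain, a cytokine receptor subunit of lymphocytes, were followed at the transcript level across splenic CD4 T cells of a lupus-prone mouse strain and its control. The 8 genes were taken by symbol: Il2ra, Il2rb, Il2rg, Il7r, Il4ra, Il21r, Il9r and Il15ra. All 8 were found among the 26683 symbols of the count table, and 8 of 8 were among the 13427 genes with enough counts to test.

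RNA was sequenced from 14 libraries of 7 female mice aged 8 months, with 1 library of follicular helper T cells (Tfh) and 1 of naive T cells (Tn) sorted from the spleen of each. The control group was C57BL/6J (B6, n = 4 mice), and the other strain was the B6.NZM triple congenic (TC, n = 3 mice). TC mice hold 3 intervals of the lupus-prone NZM2410 strain, Sle1, Sle2 and Sle3, together on the B6 background, so that effects of single intervals cannot be told apart. The Tfh gate took CD4-positive cells that carried CD44 and PD-1 and had low or no CD162, and the Tn gate took CD4-positive cells without CD44. No gate was set against regulatory T cells or follicular regulatory T cells. Levels are in CPM, counts per 1e6 of the scaled library size, and a form such as a ± b is a mean ± SD over the 4 B6 or 3 TC libraries.

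Each receptor of this family pairs the common gamma chain, encoded by Il2rg, with a chain that recognises its cytokine. The high-affinity interleukin-2 receptor adds the alpha chain Il2ra to the beta chain Il2rb, and the interleukin-15 receptor uses Il2rb with its own alpha chain, Il15ra. Il7r, Il4ra, Il21r and Il9r encode the private chains for interleukins 7, 4, 21 and 9. Signals pass through the kinases JAK1 and JAK3 to STAT proteins. Naive T cells are known for survival on interleukin-7, Tfh for making interleukin-21 and interleukin-4, and regulatory T cells for high Il2ra.

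Libraries held 15162309 to 20191558 counts, and 3 counts correspond to 0.15 to 0.191 CPM. The labels were checked against markers in both strains: 6 of 6 Tfh markers, Cxcr5 and Bcl6 among them, were higher in Tfh, and 6 of 6 naive markers, such as Lef1 and Tcf7, were higher in Tn. Markers of CD4 T cells were present in all libraries, with summed levels from 3558 to 5925 CPM. The summed level of 10 regulatory T cell markers (Foxp3, Ikzf2, Ctla4, Nrp1, Tnfrsf18, Tnfrsf4, Lrrc32, Tigit, Ikzf4, Il10) ran from 2613 to 3097 CPM in the Tfh libraries of B6 and from 2990 to 3470 CPM in those of TC, and from 180.3 to 221.7 and from 143.8 to 187.5 CPM in the Tn libraries. In a sorted population, fewer cells of a type and less RNA per cell cannot be told apart.

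The 8 genes lie on 4 autosomes and the X chromosome, and 4 of them form neighbouring pairs. Coordinates are of GRCm38 (mm10) with GENCODE M21 gene models. Il2ra (chromosome 2, 11642807 to 11693193) is followed on the same strand, after 12.1 kb, by Il15ra (11705290 to 11734317). Il4ra (chromosome 7, 125552120 to 125579474) is followed on the same strand, after 24.0 kb, by Il21r (125603429 to 125633570). Sle3 is also on chromosome 7, and its limits were not used here. The remaining genes are on the minus strand: Il9r on chromosome 11 (32187541 to 32200279), Il7r (9505788 to 9530176) and Il2rb (78479256 to 78495271) on chromosome 15, and Il2rg on chromosome X (101264378 to 101268255).

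The upstream sequences of both neighbouring pairs and of Il9r are printed because one neighbouring pair moved together between Tfh and Tn and the other did not, while Il9r was near 0 in Tn. They are the bases before the RefSeq start (GRCm38.p6), cut where an annotated transcript begins and written 5′ to 3′ on the gene's strand. Capitals mark a motif match.
Il2ra, chr2:11642542-11642791, plus strand: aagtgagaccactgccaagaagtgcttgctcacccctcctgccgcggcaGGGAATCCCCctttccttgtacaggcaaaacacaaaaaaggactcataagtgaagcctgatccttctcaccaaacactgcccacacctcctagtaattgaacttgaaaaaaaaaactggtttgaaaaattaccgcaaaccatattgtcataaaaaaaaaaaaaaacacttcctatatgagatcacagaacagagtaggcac
Il15ra, chr2:11705043-11705289, plus strand: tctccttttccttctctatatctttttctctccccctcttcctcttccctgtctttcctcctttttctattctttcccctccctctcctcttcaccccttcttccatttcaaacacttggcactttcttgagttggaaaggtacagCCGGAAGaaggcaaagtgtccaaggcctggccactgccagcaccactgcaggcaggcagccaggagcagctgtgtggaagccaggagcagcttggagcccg
Il4ra, chr7:125552021-125552119, plus strand: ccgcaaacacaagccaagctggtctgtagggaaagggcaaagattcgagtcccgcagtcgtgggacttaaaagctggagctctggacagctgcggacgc
Il21r, chr7:125603179-125603428, plus strand: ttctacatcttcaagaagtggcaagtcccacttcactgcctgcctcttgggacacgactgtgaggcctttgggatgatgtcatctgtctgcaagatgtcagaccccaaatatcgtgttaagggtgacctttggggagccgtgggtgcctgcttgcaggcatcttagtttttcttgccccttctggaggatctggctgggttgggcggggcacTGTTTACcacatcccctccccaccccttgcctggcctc
Il9r, chr11:32200280-32200529, minus strand: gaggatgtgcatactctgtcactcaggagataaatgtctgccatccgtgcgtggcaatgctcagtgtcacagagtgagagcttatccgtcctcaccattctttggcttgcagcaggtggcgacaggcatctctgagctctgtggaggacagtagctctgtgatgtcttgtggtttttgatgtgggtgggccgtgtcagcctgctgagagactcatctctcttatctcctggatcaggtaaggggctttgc

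In these letters the capitals of Il2ra match an NF-kB motif (GGGA and CCC with 3 bases between them), those of Il15ra an ETS motif (CCGGAAG), and those of Il21r a forkhead motif (GTAAACA) on the opposite strand. Il4ra and Il9r held no match in 250 bases upstream, nor to a STAT motif (TTCNNNGAA) or an AP-1 motif (TGANTCA). Both strands were searched in the 250 bases upstream of 32851 RefSeq promoters, where the NF-kB motif was found in 4.77%, ETS in 6.91%, forkhead in 3.17%, STAT in 7.02% and AP-1 in 6.75%. An upstream window was found for 7 of the 8 genes. The pairs' printed sequences thus share none of the 5 motifs with their neighbour.

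Between Tfh and Tn the family was exchanged chain by chain: the Il2rb, Il2ra, Il15ra and Il9r transcripts were higher in Tfh, and Il4ra, Il7r and Il2rg were higher in Tn, in both strains. Il21r differed little. With edgeR's quasi-likelihood test and Benjamini-Hochberg adjustment over all tested genes, 8 of 8 passed an adjusted p of 0.05 in B6 (4 higher, 4 lower), where 70.5% of all tested genes passed (37.1% higher, 33.4% lower). In TC 7 of 8 passed (4 higher, 3 lower), where 66.2% of all genes did (33.8% higher, 32.4% lower). The median log2 fold change of the 8 genes was 0.58 in B6 and 0.73 in TC, against 0.02 and -0.01 over all genes. The libraries of both cell types did not overlap for 7 members in B6 and 8 in TC, where 63.9% and 71.3% of all genes did not overlap. Il9r, with 2 counts in B6 Tn and 0 in TC Tn, passed the count filter only through Tfh. Its place among the higher and the non-overlapping members was thus fixed, and it also enters the medians.

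**Figure D1:**
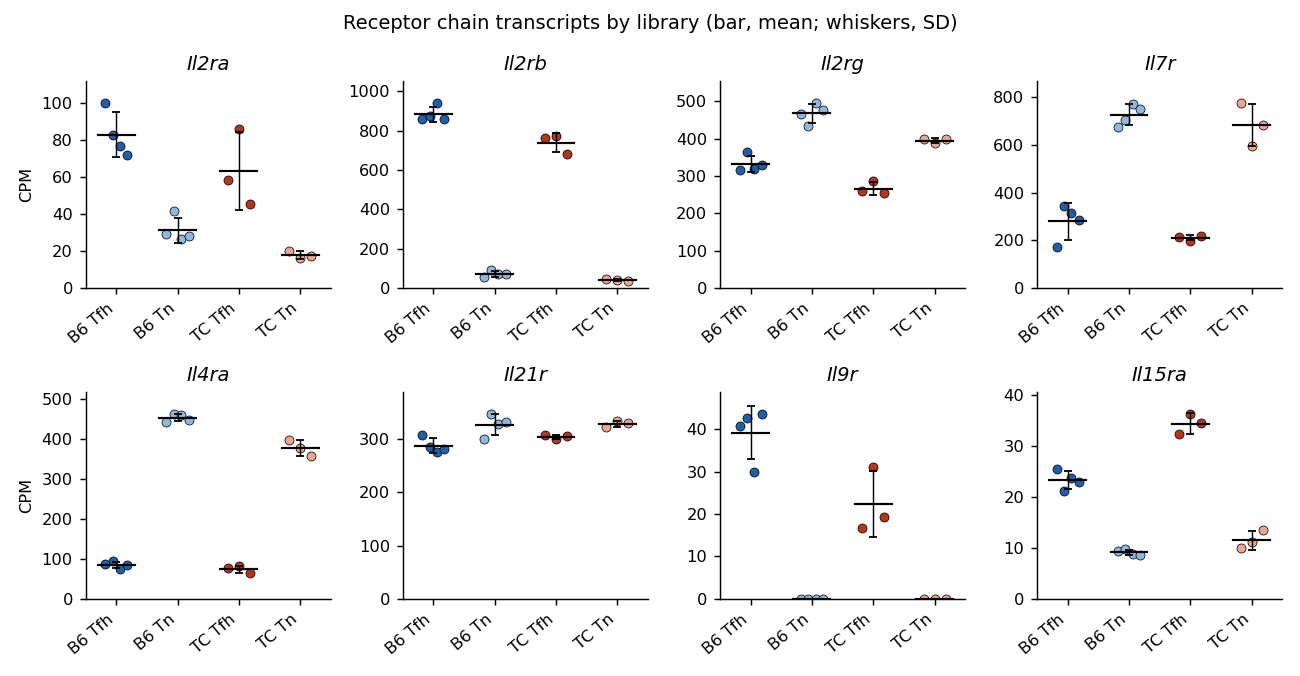
CPM of the 8 receptor genes (1 panel each, linear axis from 0) in every library, grouped by strain and cell type; points are libraries, bars means and whiskers SD. Il2rb stood between 682.7 and 940.3 CPM in Tfh and between 36.9 and 89.8 CPM in Tn, and Il4ra showed the opposite order, with all Tn libraries above 357 CPM and all Tfh libraries below 93.4 CPM.

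Il2rb, the signalling chain shared by the interleukin-2 and interleukin-15 receptors, read 861, 875, 940.3 and 859.9 CPM in B6 Tfh 1 to 4 and 56.9, 89.8, 69.4 and 72.2 CPM in B6 Tn 1 to 4. In TC it read 765, 774 and 683 CPM in Tfh 1, 2 and 4 and 45.5, 40.4 and 36.9 CPM in the Tn libraries of the same mice. Every Tfh library was above every Tn library by a wide gap. The level was 12.3-fold higher in B6 Tfh (log2 fold change 3.62, SE 0.11, adjusted p = 9.819e-14) and 18.1-fold higher in TC Tfh (4.18, SE 0.13, adjusted p = 2.771e-13). Within mice the Tfh to Tn ratio was 15.1, 9.75, 13.6 and 11.9 in the 4 B6 mice and 16.8, 19.2 and 18.5 in the 3 TC mice, so the ratios of the strains did not overlap. The difference between strains in this ratio, the interaction term, was 0.56 on the log2 scale (SE 0.16, unadjusted p = 0.003107, adjusted p = 0.09109) and did not pass. With mouse as a replicate block it was 0.55 (SE 0.13) with an adjusted p of 0.03563, which passed, and so did the fit without B6 Tn 1 (0.66, adjusted p = 0.01386) and the DESeq2 fit (0.57, adjusted p = 0.01408).

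Il2ra, the chain that gives the interleukin-2 receptor its high affinity, read 100.03, 82.9, 76.8 and 72.05 CPM in B6 Tfh and 29.0, 41.5, 26.7 and 28.02 CPM in B6 Tn. In TC the values were 58.5, 86.2 and 45.3 CPM in Tfh and 20.3, 16.2 and 17.6 CPM in Tn. Tfh and Tn did not overlap in either strain, B6 Tn 2 stood above the other B6 Tn libraries, and TC Tfh 2 above the other TC Tfh libraries. The fold was 2.65 in B6 (log2 1.41, SE 0.20, adjusted p = 5.103e-05) and 3.49 in TC (1.80, SE 0.25, adjusted p = 4.607e-05), and 7 of 7 mice had more in Tfh, by 2.0-fold to 5.32-fold.

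The regulatory T cell markers moved with Il2ra and Il2rb: 10 of 10 were higher in Tfh in both strains. Over all tested genes 37.1% were higher in B6 Tfh and 33.8% in TC Tfh. None of the 10 was at 0 in a group. Il10, with 4 counts in B6 Tn and 15 in TC Tn, passed the count filter only through Tfh, which fixed its direction. Foxp3, the defining factor of regulatory T cells, read 344, 343, 279 and 280.0 CPM in B6 Tfh and 31.2, 44.0, 36.7 and 39.1 CPM in B6 Tn. It read 319.7, 392.6 and 258 CPM in TC Tfh and 29.5, 23.9 and 24.6 CPM in TC Tn. The libraries highest in Il2ra within TC Tfh, B6 Tn and TC Tn (TC Tfh 2, B6 Tn 2 and TC Tn 1) were also the highest in Foxp3 in their group, as was B6 Tfh 1. The part of regulatory cells in the receptor levels was not tested.

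**Figure D2:**
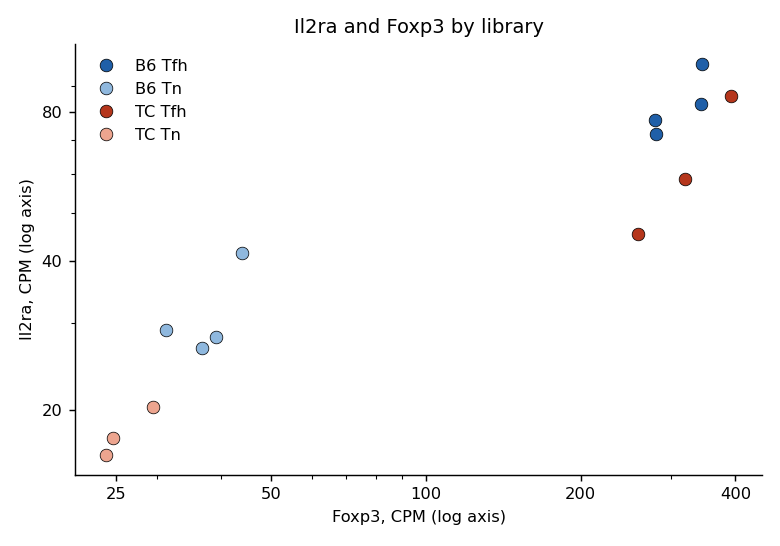
Il2ra against Foxp3, both in CPM on log axes, with 1 point per library coloured by group. Tfh libraries lie at 45.3 to 100.03 CPM of Il2ra and 258 to 392.6 CPM of Foxp3, Tn libraries at 16.2 to 41.5 and 23.9 to 44.0 CPM, and within each group the library highest in Il2ra is the highest in Foxp3.

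Il15ra, which presents interleukin-15 and binds it with high affinity, read 25.5, 21.1, 23.8 and 22.8 CPM in B6 Tfh against 9.39, 9.72, 8.78 and 8.59 CPM in B6 Tn. In TC it read 32.3, 36.3 and 34.5 CPM in Tfh against 9.91, 11.1 and 13.5 CPM in Tn. The groups did not overlap, and the fold was 2.55 in B6 (log2 1.35, SE 0.09, adjusted p = 3.966e-10) and 2.99 in TC (1.58, SE 0.10, adjusted p = 2.475e-10). Il2ra and Il15ra, neighbours on chromosome 2, therefore both rose in Tfh in both strains, in 7 of 7 mice each.

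Il9r, the private chain of the interleukin-9 receptor, was a Tfh transcript in these libraries. It read 40.7, 42.7, 29.85 and 43.6 CPM in B6 Tfh and 16.6, 31.1 and 19.3 CPM in TC Tfh, and no more than 1 count was found in any Tn library. Over the groups there were 3067 counts in B6 Tfh against 2 in B6 Tn, a ratio of 1400 with a 95% counting interval from 389 to 11600, and 1142 counts in TC Tfh against 0 in TC Tn, at least 379-fold higher against a floor of 3 counts over the group. The interval and the floor cover counting error only. Il9r passed the count filter only through Tfh, which fixed its direction. Its adjusted p in edgeR (7.745e-13 in B6 and 1.199e-10 in TC) thus adds no support.

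Cd22, a surface receptor best known from B cells, was among the genes most like Il9r across libraries, and B cell markers were therefore read beside it. Cd22 read 82.6 to 100.6 CPM in B6 Tfh, 46.5 to 79.4 CPM in TC Tfh and at most 0.463 CPM in Tn. The 8 B cell markers, Cd22, Pax5, Cd79b and Ms4a1 among them, summed to 106.3 to 116.4 CPM in B6 Tfh, 71.5 to 99.6 in TC Tfh and at most 2.58 CPM in Tn, and none was at 0 in every library of a group. Of the 4 that could be tested, 3 were higher in Tfh in both strains. Among these, Cd22 and Pax5 passed the count filter only through Tfh, which fixed their direction. Ms4a1, which encodes CD20 and defines B cells, was near 0 in Tfh, at 0.585 ± 0.312 CPM in B6 and 0.310 ± 0.0925 CPM in TC.

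Il4ra, which pairs with the common gamma chain to bind interleukin-4, was the chain most reduced in Tfh. It read 88.0, 93.35, 74.6 and 83.85 CPM in B6 Tfh against 442, 462, 459 and 448 CPM in B6 Tn. In TC it read 77.05, 80.8 and 63.5 CPM in Tfh against 396.5, 378 and 357 CPM in Tn. Every Tn library stood far above every Tfh library, with a level 5.33-fold lower in B6 Tfh (log2 fold change -2.41, SE 0.07, adjusted p = 8.65e-15) and 5.12-fold lower in TC Tfh (-2.36, SE 0.09, adjusted p = 1.499e-13).

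Il7r, the interleukin-7 receptor alpha chain, read 171.5, 344, 316 and 285 CPM in B6 Tfh and 675, 705, 771 and 752 CPM in B6 Tn. In TC it read 215, 199 and 218 CPM in Tfh and 774, 596.5 and 681.5 CPM in Tn. Again Tfh and Tn did not overlap, and B6 Tfh 1 was well below the other B6 Tfh libraries. The level was 2.6-fold lower in B6 Tfh (-1.38, SE 0.17, adjusted p = 1.031e-05) and 3.25-fold lower in TC Tfh (-1.70, SE 0.20, adjusted p = 7.841e-06).

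Il2rg, the shared chain itself, differed by a smaller fold than its partners other than Il21r. It read 315.5, 363, 319.5 and 331 CPM in B6 Tfh and 467, 433, 495 and 475 CPM in B6 Tn. In TC it read 259, 286 and 253.5 CPM in Tfh and 398.5, 388 and 398 CPM in Tn. Tfh libraries were below all Tn libraries of their strain, by 1.41-fold in B6 (-0.49, SE 0.06, adjusted p = 4.401e-07) and 1.48-fold in TC (-0.57, SE 0.07, adjusted p = 6.098e-07). Its exons share 728 bases with a gene model on the same strand, Gm20489, which had 0 counts in all libraries.

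Il21r, the receptor for the cytokine that Tfh secrete, was nearly level between the cell types. B6 Tfh read 308, 285, 275 and 281 CPM and B6 Tn 301, 347, 328 and 332 CPM, ranges that overlap. TC Tfh read 306, 299 and 306 CPM and TC Tn 321.5, 333 and 329.8 CPM, which do not overlap. The log2 fold change was -0.19 in B6 (SE 0.05, adjusted p = 0.002654) and -0.11 in TC (SE 0.06, adjusted p = 0.09774, 95% interval -0.223 to 0.00132). In B6 the call was lost when libraries were scaled by their totals alone (-0.05, adjusted p = 0.3796), a scaling that moved the median of all genes by 0.134 on the log2 scale. Il4ra and Il21r, neighbours on chromosome 7, thus differed more than 5-fold and at most 1.14-fold between the cell types. The exons of Il4ra share 571 bases with an antisense gene model, Gm44876, which was not analysed here, and whether counting used strand is not given in the sources used here.

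**Figure D3:**
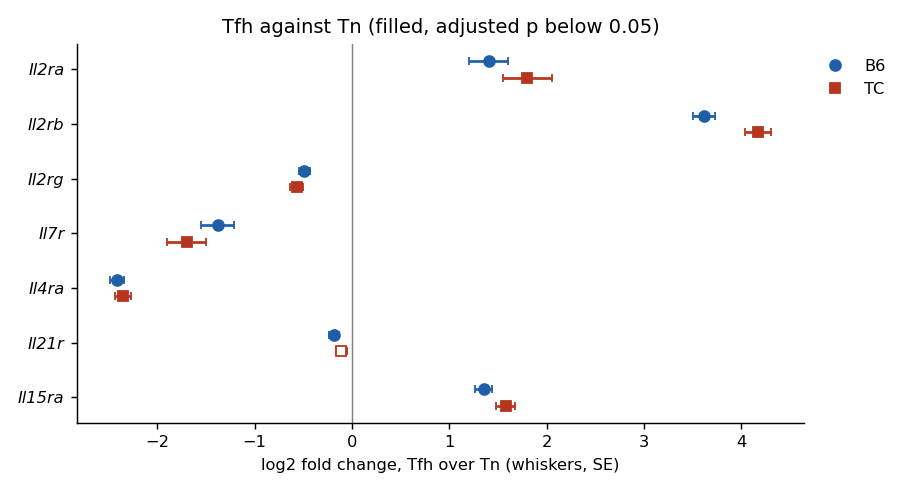
Log2 fold change of Tfh over Tn (x axis) for 7 receptor genes in B6 (circles) and TC (squares), with SE as whiskers and filled symbols for an adjusted p below 0.05 in edgeR. Il2rb lies at 3.62 and 4.18 and Il4ra at -2.41 and -2.36, and Il21r in TC is the open symbol; Il9r is not drawn because its Tn libraries held at most 1 count each.

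Levels of different chains were compared per kb of exon, as CPM per kb of the union of annotated exons. In B6 Tfh the order was Il2rb (206), Il2rg (139), Il21r (86.4), Il7r (59.8), Il2ra (14.5), Il4ra (14.2), Il9r (7.92) and Il15ra (5.24), and only Il2ra and Il4ra overlapped with a neighbour. In B6 Tn it was Il2rg (196), Il7r (156), Il21r (98.3), Il4ra (75.4), Il2rb (16.8), Il2ra (5.48) and Il15ra (2.05), with no overlap between neighbours and Il9r at 2 counts in all. In TC Tfh the same chains led, Il2rb (173), Il2rg (112), Il21r (91.4) and Il7r (45.2), followed by Il4ra (12.3), Il2ra (11.1) and Il15ra (7.73), where neighbours overlapped, and Il9r (4.52). TC Tn led with Il2rg (165) and Il7r (147), which overlapped, followed by Il21r (98.7), Il4ra (62.8), Il2rb (9.55), and Il2ra (3.16) and Il15ra (2.58), which overlapped. Part of this order rests on the length used. Per kb of the longest transcript, Il2rb and Il2rg overlapped in B6 Tfh (205 to 224.2 against 188.9 to 217.4) and in TC Tfh (162.8 to 184.5 against 151.8 to 171.3). By its mean, Il15ra then stood above Il9r in B6 Tfh (10.07 against 8.75), above Il2ra and Il4ra in TC Tfh and above Il2ra in TC Tn. The ranges overlapped in each of these cases. Il2rg and Il7r, by the same length, overlapped in no Tn group.

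The summed level of the 8 chains was 533.5 ± 21.6 CPM per kb in B6 Tfh and 549.5 ± 19.7 in B6 Tn, ranges that overlap, and 456.5 ± 20.9 in TC Tfh and 488.9 ± 22.0 in TC Tn, which overlap as well. The TC libraries were below all B6 libraries of the same cell type, a difference in the sum that was not tested. Per kb of the longest transcript the cell types did not overlap, with sums of 657.2 ± 28.2 in B6 Tfh against 730.0 ± 26.3 in B6 Tn and 565.3 ± 24.6 against 651.6 ± 28.6 in TC. The share of Il2rb in the longest-transcript sum ran from 30.1% to 33.8% in B6 Tfh and from 1.9% to 3.0% in B6 Tn. In TC it ran from 30.1% to 32.2% and from 1.4% to 1.6%. The shares that follow are of the exon-union sum. Il2rb made 38.7% ± 1.74 of it in B6 Tfh and 3.06% ± 0.566 in B6 Tn, with 37.8% ± 1.11 and 1.95% ± 0.16 in TC. Il7r went the other way, at 11.1% ± 2.69 in B6 Tfh and 28.3% ± 0.731 in B6 Tn, with 9.92% ± 0.898 and 29.9% ± 2.55 in TC. The Il4ra share was 2.66% ± 0.255 in B6 Tfh and 13.7% ± 0.418 in B6 Tn.

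**Figure D4:**
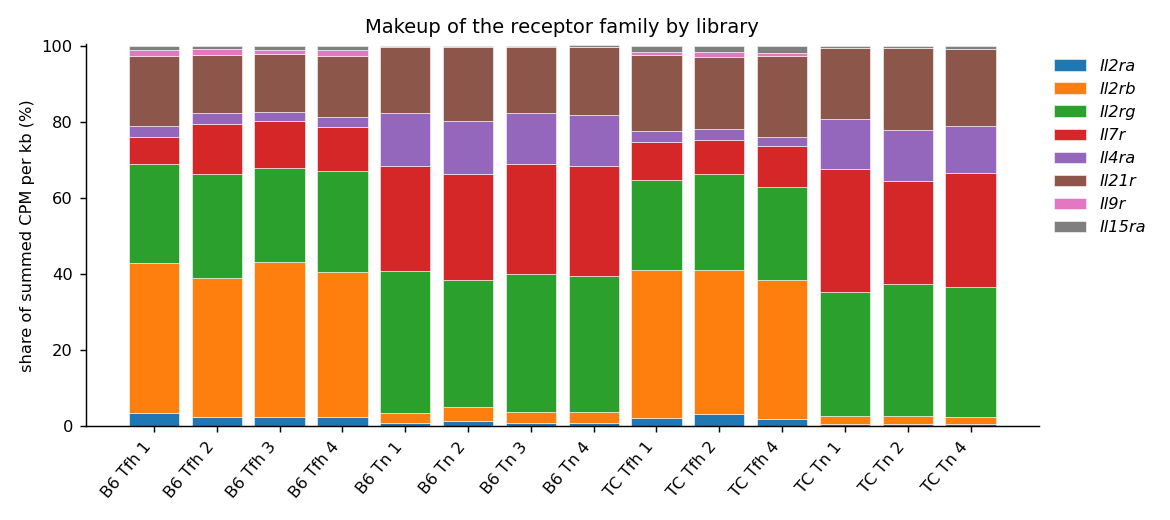
Share of the summed CPM per kb (y axis, percent) held by each of the 8 receptor genes in each of the 14 libraries (x axis). Il2rb takes 36.5% to 40.6% in every Tfh library and 1.77% to 3.85% in every Tn library, with lengths taken as the union of exons.

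The ratio of Il2rb to the shared chain Il2rg, per kb, was 1.49 ± 0.125 in B6 Tfh and 0.0865 ± 0.0206 in B6 Tn, with 1.55 ± 0.0814 and 0.0578 ± 0.00599 in TC. With these lengths Il2rb was above Il2rg in every Tfh library and far below it in every Tn library. Per kb of the longest transcript it was above in 3 of 4 B6 Tfh and 3 of 3 TC Tfh libraries, with B6 Tfh 2 at 208.7 against 217.4, and below in every Tn library. The ratio of Il2ra to Il2rb ran the other way, at 0.0706 ± 0.0119 in B6 Tfh and 0.327 ± 0.0457 in B6 Tn, against 0.0636 ± 0.0178 and 0.331 ± 0.0283 in TC.

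Between strains, every receptor that passed the test was lower in TC except Il15ra, which was higher. In Tfh 4 of 8 passed the test (Il15ra higher, Il2rg, Il4ra and Il9r lower), where 50.7% of all tested genes passed (24.7% higher, 25.9% lower). In Tn 5 of 8 passed (Il15ra higher, Il2rb, Il2ra, Il4ra and Il2rg lower), where 51.9% of all genes did (25.8% higher, 26.1% lower). Libraries of the strains did not overlap for 3 members in Tfh and 5 in Tn, against 50.2% and 55.5% of all genes. The median log2 fold change of the 8 genes was -0.29 in Tfh and -0.25 in Tn, against -0.02 and -0.01 over all genes. The counts of called members were near the share of all genes called.

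Il15ra was higher in TC Tfh, with 3 TC libraries from 32.3 to 36.3 CPM above 4 B6 libraries from 21.1 to 25.5 CPM. The fold was 1.47 (log2 0.56, SE 0.08, adjusted p = 4.938e-05). In Tn, where TC libraries from 9.91 to 13.5 CPM also lay above all B6 libraries, it was 1.26 (0.33, SE 0.11, adjusted p = 0.01597), and without TC Tn 4 it was 0.20 on the log2 scale with an adjusted p of 0.1549. The ratio of Il15ra to Il2ra per kb was 0.743 ± 0.222 in TC Tfh and 0.365 ± 0.0436 in B6 Tfh, and ran from 0.626 to 0.984 in TC Tn and from 0.301 to 0.423 in B6 Tn.

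The interleukin-2 receptor chains were lower in TC Tn. Il2rb was 1.76-fold lower (-0.81, SE 0.12, adjusted p = 4.298e-05), with means of 40.9 ± 4.32 CPM in TC and 72.1 ± 13.6 CPM in B6. Il2ra was 1.73-fold lower (-0.79, SE 0.24, adjusted p = 0.01759), with 18.1 ± 2.08 and 31.3 ± 6.84 CPM. Neither gene overlapped between the strains in Tn. The Il2ra call was lost without TC Tn 2 (adjusted p = 0.06321) or TC Tn 4 (adjusted p = 0.05354). Of the regulatory T cell markers 4 of 10 were lower and 1 of 10 higher in TC Tn, where 26.1% of all genes were lower and 25.8% higher. The part of these markers was not tested.

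In Tfh the same chains did not pass the test. Il2rb was at 740.5 ± 50.2 CPM in TC and 884 ± 38.05 CPM in B6, without overlap (-0.26, SE 0.11, adjusted p = 0.05529, 95% interval -0.463 to -0.0487). It passed in DESeq2 (adjusted p = 0.04265), when only those groups were fitted (0.01443), and without B6 Tn 1 (0.01567) or B6 Tn 2 (0.01445), libraries that enter this comparison only through the shared estimate of spread. Il2ra was at 63.4 ± 20.9 and 82.9 ± 12.2 CPM with overlap (-0.39, SE 0.21, adjusted p = 0.1378, 95% interval -0.802 to 0.0146). With mouse as a replicate block, fitted by limma voom in place of edgeR, the Il2ra difference was -0.44 (adjusted p = 0.04425). Without TC Tfh 2 it was -0.66 in edgeR (adjusted p = 0.01063).

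Il2rg was lower in TC in both cell types, by 1.25-fold in Tfh (-0.32, SE 0.06, adjusted p = 0.000405) and 1.18-fold in Tn (-0.24, SE 0.06, adjusted p = 0.002908), and its libraries did not overlap between strains in either. Il4ra was 1.2-fold lower in TC Tn (-0.26, SE 0.07, adjusted p = 0.006961), without overlap. In Tfh its TC and B6 libraries overlapped, and the difference (-0.21, SE 0.08, adjusted p = 0.04063) was lost at a count minimum of 50 (adjusted p = 0.05496), with only those groups fitted (0.1246), and without B6 Tfh 1, 2 or 4 or TC Tfh 1 or 4 (0.06394 to 0.3377, the highest without TC Tfh 4, at -0.09).

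Il9r was 1.77-fold lower in TC Tfh (-0.82, SE 0.17, adjusted p = 0.0006325), at 22.3 ± 7.74 CPM against 39.2 ± 6.35 CPM in B6, although TC Tfh 2 at 31.1 CPM overlapped B6 Tfh 3 at 29.85 CPM. In Tn both strains were at or below 2 counts in all, and no fold is given. Il7r did not pass in Tfh (-0.41, SE 0.18, adjusted p = 0.08598, 95% interval -0.766 to -0.0445). It passed without B6 Tfh 1, its lowest B6 library (-0.56, adjusted p = 0.0001261). In Tn it did not pass either (-0.08, adjusted p = 0.7298, 95% interval -0.437 to 0.267). Il21r was close between strains, with a 95% interval of the log2 fold change from -0.0223 to 0.187 in Tfh and from -0.099 to 0.11 in Tn. It passed in Tfh without B6 Tfh 1 (0.14, adjusted p = 0.04286).

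**Figure D5:**
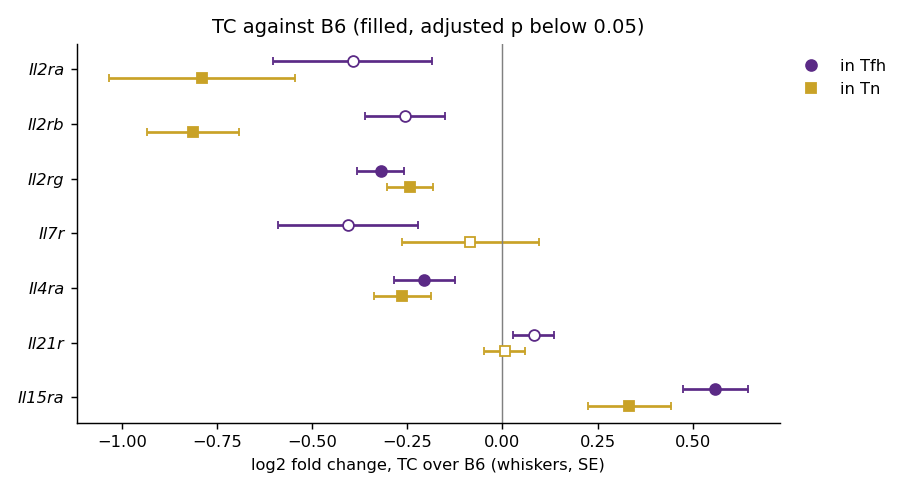
Log2 fold change of TC over B6 (x axis) for 7 receptor genes in Tfh (circles) and Tn (squares), with SE as whiskers and filled symbols for an adjusted p below 0.05 in edgeR. Il15ra is to the right of 0 in both cell types (0.56 and 0.33), Il2rg and Il4ra to the left in both, and Il2rb and Il2ra reach -0.81 and -0.79 in Tn; Il9r is not drawn because its Tn libraries were at or below the floor.

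No member passed the test of the interaction of strain and cell type, where 2.1% of all genes did (0.864% higher, 1.24% lower). Adjusted p ran from 0.09109 for Il2rb to 0.8845 for Il4ra, and at an unadjusted p of 0.05 only Il2rb passed. With mouse as a replicate block 1 member passed, Il2rb, and the calls over all genes rose from 282 to 736; DESeq2 also gave 1, Il2rb, and 533 over all genes.

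The ligands were read in the same libraries. All 5 of the family's cytokines that could be tested (Il2, Il4, Il7, Il15 and Il21) were higher in Tfh in both strains, and Il9 was not analysed here. Over all tested genes 37.1% were higher in B6 Tfh and 33.8% in TC Tfh. These 5 held 0 to 19 counts over a Tn group and passed the count filter only through Tfh. Their direction was thus fixed by the filter, and the count of 5 is no result. Il21 stood at 191 ± 25.2 CPM in B6 Tfh, 251 ± 28.7 CPM in TC Tfh and below 0.4 CPM on average in Tn. It was 1.31-fold higher in TC than in B6 Tfh (log2 0.39, adjusted p = 0.002851). Il4, the ligand of the reduced Il4ra, had 639 counts in B6 Tfh against 0 in B6 Tn and 812 in TC Tfh against 5 in TC Tn, and was 1.9-fold higher in TC Tfh than in B6 Tfh (0.93, adjusted p = 4.991e-05). Il7 and Il15, which stromal and myeloid cells are known to supply, stayed below 2 CPM in every library.

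The 2 partner chains that join these receptors from outside the family were both higher in Tfh in both strains. Over all tested genes 37.1% were higher in B6 Tfh and 33.8% in TC Tfh. Crlf2, which pairs with Il7r to bind thymic stromal lymphopoietin, stood at 71.0 ± 6.80 CPM in B6 Tfh and 34.7 ± 4.76 CPM in B6 Tn (2.05-fold, adjusted p = 8.75e-09) and was 1.94-fold higher in TC Tfh. Il13ra1, which pairs with Il4ra to form the receptor that also binds interleukin-13, stood at 20.4 ± 7.11 CPM in B6 Tfh and 0.331 ± 0.240 CPM in B6 Tn, against 40.02 ± 22.2 and 0.403 ± 0.0921 CPM in TC. With 24 counts in B6 Tn and 21 in TC Tn, Il13ra1 passed the count filter only through Tfh, which fixed its direction. Crlf2 was higher where its partner Il7r was lower.

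Among 7 JAK and STAT genes 2 were higher and 2 lower in B6 Tfh, and 3 and 2 in TC Tfh. Over all tested genes 37.1% were higher and 33.4% lower in B6 Tfh, and 33.8% and 32.4% in TC Tfh. Jak3, the kinase bound to the common gamma chain, stood at 457 ± 21.2 CPM in the Tfh and 298 ± 7.37 CPM in the Tn of B6, against 947.5 ± 30.2 and 606.5 ± 45.1 CPM in TC. It was 1.53-fold and 1.56-fold higher in Tfh in B6 and TC, and 2.07-fold higher in TC than in B6 Tfh (1.05, adjusted p = 4.432e-10) and 2.04-fold higher in TC Tn (1.03, adjusted p = 5.588e-10). Jak3 thus differed between strains in the opposite direction to Il2rg, whose chain it binds. Jak1, the kinase on the partner chains, was 1.42-fold lower in B6 Tfh (-0.50, adjusted p = 2.326e-08) and 1.37-fold lower in TC Tfh, and did not pass between strains.

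Between Tfh and Tn, brakes of the pathway were called in both directions, and the adaptors called were lower in Tfh except Gab2. Over all tested genes 37.1% were higher and 33.4% lower in B6 Tfh, and 33.8% and 32.4% in TC Tfh. Of 5 adaptors 1 was higher and 2 lower in B6 Tfh, and 1 and 3 in TC Tfh. The higher one, Gab2, held 4 counts in B6 Tn and 3 in TC Tn. It passed the count filter only through Tfh, which fixed its direction. Pik3r1, the regulatory subunit of phosphoinositide 3-kinase, was 2.27-fold lower in B6 Tfh (-1.18, adjusted p = 3.966e-11) and 2.08-fold lower in TC Tfh, and Irs2, the docking protein of the interleukin-4 receptor, was 2.04-fold higher in TC than in B6 Tfh (adjusted p = 2.227e-05) and 2.27-fold higher in TC Tn (adjusted p = 1.489e-06). Of 6 brakes 3 were higher and 2 lower in Tfh in each strain. Socs2, a STAT5-induced inhibitor, rose 4.76-fold in B6 Tfh (adjusted p = 4.341e-08) and 8.69-fold in TC Tfh (adjusted p = 4.638e-07), and was 1.58-fold lower in TC than in B6 Tfh (adjusted p = 0.007829) and 2.89-fold lower in TC Tn (adjusted p = 0.00562). Ptpn2, a phosphatase of JAK and STAT proteins, was 1.27-fold lower in B6 Tfh (adjusted p = 4.378e-06) and 1.26-fold lower in TC Tfh.

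Genes known to be induced through STAT5 were called in both directions, with 3 of 7 higher and 4 lower in B6 Tfh. In TC Tfh 2 were higher and 3 lower. The shares of all tested genes were 37.1% higher and 33.4% lower in B6 Tfh, and 33.8% and 32.4% in TC Tfh. Prdm1, which encodes the repressor Blimp-1, rose 2.6-fold in B6 Tfh (adjusted p = 9.569e-08) and 3.0-fold in TC Tfh. Bcl2, the survival factor known as a target of interleukin-7 signals, read 145 ± 20.7 CPM in the Tfh and 335 ± 35.9 CPM in the Tn of B6, against 152 ± 18.2 and 177 ± 12.5 CPM in TC. Its Tfh to Tn difference was -1.21 in B6 (adjusted p = 5.785e-08) and -0.22 in TC (adjusted p = 0.1115), and the interaction passed (0.99, adjusted p = 0.003909). Bcl2 was 1.89-fold lower in TC Tn than in B6 Tn (-0.92, adjusted p = 1.146e-05), a comparison in which Il7r did not pass.

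Of 8 regulators known to act on transcription of these receptors, 3 were higher and 3 lower in Tfh in each strain. These counts were near the shares of all tested genes (37.1% higher and 33.4% lower in B6, 33.8% and 32.4% in TC). Foxo1, an activator of Il7r, was 2.2-fold lower in B6 Tfh (-1.14, adjusted p = 1.096e-10) and 2.24-fold lower in TC Tfh, and Gfi1, a repressor of Il7r, was 3.17-fold higher (1.67, adjusted p = 1.33e-13) and 2.21-fold higher. Tbx21, which encodes T-bet, an activator of Il2rb, stood at 29.3 ± 2.27 CPM in B6 Tfh and 0.337 ± 0.0557 CPM in B6 Tn, against 20.8 ± 4.29 and 0.456 ± 0.239 CPM in TC. With 24 counts in B6 Tn and 23 in TC Tn, Tbx21 passed the count filter only through Tfh, which fixed its direction. Runx3, also among these regulators, was 1.66-fold lower in B6 Tfh (-0.73, adjusted p = 1.276e-05) and 2.11-fold lower in TC Tfh. The part of these regulators in the receptor levels was not tested. All 4 homing genes linked to FOXO1 were lower in Tfh in both strains, where 33.4% of all tested genes were lower in B6 and 32.4% in TC. Klf2, which drives exit from lymphoid tissue, was 3.63-fold and 5.1-fold lower. The strain difference in these 4 genes passed only for Ccr7, which was 1.63-fold lower in TC Tfh (adjusted p = 7.582e-05) and 1.3-fold lower in TC Tn (adjusted p = 0.004133).

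Likeness to other genes was measured as Pearson's r of log2 CPM over the 14 libraries, among 9251 genes with a mean of at least 5 CPM. The libraries fall into Tfh and Tn and share mice, so a high r mainly describes that division. The genes most like Il2rb were Cxcr5 and Casp1 (r = 0.997 each), those most like Il4ra were Gramd4 (0.998) and Itgb3 (0.996), and those most like Il9r were Cd22 and Itgb1 (0.997 each). Il2ra was most like Ntn1 (0.972) and Manba (0.971), Il15ra most like Fbxw17 (0.991) and Agbl5 (0.990), Il7r most like Ggt1 (0.983) and Lrrc75b (0.981), and Il2rg most like Vdac2 (0.986) and Cyb5a (0.985). Il21r had the lowest likeness, with Utp14b (0.894) and Swt1 (0.887). After the mean of each group was subtracted, Foxp3 was the gene most like Il2ra (0.86), March3 most like Il2rb (0.924), Mcm4 most like Il7r (0.926) and Top2a most like Il15ra (0.942). Heatr3 was then most like Il9r (0.915), Hic1 most like Il21r (0.912), Eef2k most like Il4ra (0.907) and Tesk1 most like Il2rg (0.886). Each r is the highest among 9251 genes and was not tested, and that of Foxp3 was the lowest among the members.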

How the data were processed

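RNA-seq of 14 libraries was read from 1 table of read counts per gene symbol, deposited by the authors as whole numbers without normalization. Libraries came from a TruSeq Stranded kit, per the labels' protocols. Alignment used STAR 2.7 with mm10, and DESeq2 is named too, per the submitters' processing notes. How reads were counted, with or without strand, and on which annotation is not given in the sources used here. Reads of TC mice were aligned to a B6 reference and were not corrected for allele differences. The source label of Tn samples names follicular helper cells, so groups follow the titles. Sequencing batches are not named in the labels and were not modelled.

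The low-count filter (filterByExpr, count minimum 10) kept 13427 genes, which were scaled by TMM and fitted with edgeR 4.0.16 in R 4.3.3 (robust quasi-likelihood, 1 mean for each of 4 groups, no block). The cell types were compared within B6 and within TC, the strains within Tfh and within Tn, and the interaction of both was tested, positive where the ratio of Tfh to Tn was larger in TC. P-values were adjusted by Benjamini and Hochberg over all genes tested, with a threshold of 0.05. CPM used TMM-scaled library sizes, and levels per kb the union of GENCODE M21 exons, with the longest transcript as an alternative on which part of their order depends. Genes without overlap had every library of one group above every library of the other. Log2 CPM in likeness used a prior count of 2. A floor of 3 counts served groups without counts.

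Tfh and Tn came from the same mouse, per the labels' protocols. Deviations of the same mouse's libraries from group means correlated at 0.0395 to 0.299, and the limma 3.58.1 consensus correlation was 0.225, so mouse was also fitted as a block. Between strains the block was fitted by limma voom with that correlation, so the test changed along with the block. The other comparisons kept the edgeR test. Other alternatives were DESeq2 1.42.0, RLE size factors, library totals alone, no filter or a count minimum of 50, only the groups compared, and each library left out. Within groups, a chi-square test between libraries gave 5.31 to 20.4 per degree of freedom, so none was a duplicate of another. The fit was tested on simulated data.

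The members and all gene lists were chosen with earlier results of these data known. Named pathway genes were the 4 of each list with the smallest p between Tfh and Tn in B6, and named similar genes were the 2 with the highest r. Genes of marker lists, and Il2 and Il9, were named beyond that rule. Some genes of these lists are not reported here.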

Additional observations from a re-analysis of the deposited data

Results flagged for a closer look

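Il2ra in B6 Tn had 1 library apart from the others. B6 Tn 2 read 41.5 CPM, and the other 3 libraries read from 26.7 to 29.0 CPM. The gap to the nearest library was 0.841 of the whole range of the group, above the limit at which chance marks about 1 in 20 groups of 4. Foxp3 was also highest in that library, at 44.0 CPM against 31.2 to 39.1 CPM.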

How the results depend on the processing

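Direction and threshold side of all 8 members between Tfh and Tn held under every alternative run, except Il21r. In fits with a count filter the direction of Il9r was fixed by that filter. Il21r lost its call in B6 with library totals alone and gained one in TC without a filter (-0.15, adjusted p = 0.03442). The members called between TC and B6 numbered 3 to 5 in Tfh and 3 to 5 in Tn with a library left out, against 4 and 5, with 3 in Tn without TC Tn 4. For the interaction 1 member passed under DESeq2 and with mouse as a replicate block, and 0 to 1 with a library left out. Over all genes the interaction gave 533 calls under DESeq2, 736 with the replicate block and 137 to 299 with a library left out, against 282. The cause was not tested. The block fit, which used limma voom between strains, changed no other call of a member than those of Il2ra in Tfh and Il2rb in the interaction. Between TC and B6 Tn, Il21r (0.0055) turned to -0.0026 under DESeq2 and -0.0027 under RLE size factors, and ran from -0.033 to 0.034 with a library left out, below 0 without B6 Tn 1 or TC Tn 2. Il7r (-0.085) ran from -0.19 to 0.0034, above 0 without TC Tn 2. Neither was called. Of 1775 results of named pathway genes under alternatives, 1736 kept direction and threshold side, 39 lost the call and 0 reversed. Among these, the call of Cish in B6 was lost with a library left out. Lengths of the longest transcript in place of the exon union moved 23 of 32 levels per kb by more than their SD. They also changed part of the order of the chains, as given beside it. Depth limits Il9r in Tn, where 3 counts over the group are 0.0419 CPM in B6 and 0.0581 CPM in TC.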
